A study of Mus musculus with 3 samples.

Results

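NKX2-5 peaks that lay away from gene starts and were called in 1 ChIP library but not in the other are described here. Embryonic hearts of the Parkes mouse strain at E11.5, with no mutant or treated group, had been subjected to NKX2-5 chromatin immunoprecipitation followed by sequencing (ChIP-seq). The ChIP libraries were 2, named S1 and S4, beside 1 Input (genomic DNA without immunoprecipitation) that was not used here. Whole hearts were used, so signals of cardiomyocytes, endocardium, epicardium and other cells were not separated, and the sources used here do not say how many hearts or litters went into a library. Peaks were called in each of them separately on the mm9 genome, and every peak carries a score, which was read from its values as -10 times the log10 of the p-value, since the sources used here do not state its unit.

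The peaks were chosen by measured calls. A peak entered when it overlapped no peak of the other list by 1 bp or more and its midpoint lay more than 1 kb from every GENCODE M1 transcript start. In S1, 1329 of 4418 peaks met both conditions (30.1%), and in S4 2085 of 5441 did (38.3%), together 3414 of 9859 peaks. They are called S1-only and S4-only distal peaks below. For comparison, 2149 peaks of S1 and 2121 of S4 were distal and overlapped a peak of the other list, and the overlapping peaks of all positions merged into 2546 shared regions. "Only" refers to the lists: no peak scored under 140 in either list, so a site may have carried signal in the other library below its limit. There was 1 condition with 2 libraries and read numbers were not used here. No test between groups was therefore possible, library depths are unknown, and intervals in the text are exact 95% binomial (Clopper-Pearson) intervals, or 95% Newcombe intervals for differences, that cover counting error only.

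NKX2-5 is a homeodomain transcription factor that is needed for the heart to loop and for the myocardium to mature. It binds DNA around an AAGTG core and works with GATA4, TBX5 and other cardiac factors, often at enhancers far from the genes they act on. MEIS1, a homeodomain factor of the TALE class that marks cardiac progenitors, recognises a TGACA core. The study describes a hybrid motif that either protein bound in vitro. A part of the NKX2-5 site, GTG, followed by the MEIS1 core, GTGNTGACA, is in what follows called the spaced pair. It does not require the AA of the AAGTG core, and binding of either factor to single matches was not tested. The longer NKX2-5 core is TNAAGTG.

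The strongest peaks that carried one of these forms within 100 bp of the midpoint are printed first, because they show what a site called in 1 library looks like at the level of sequence. The first 4 are the highest-scoring S1-only distal peaks with the longer core or the spaced pair, outside exons, and the following 3 are from the corresponding peaks of S4. Each is written 5′ to 3′ with the match in capitals and 60 bases on each side, on the strand on which the form reads forward, from the NCBIM37 assembly, which is mm9.

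S1 peak near Ryr2, chr13:12251269-12251395, minus strand: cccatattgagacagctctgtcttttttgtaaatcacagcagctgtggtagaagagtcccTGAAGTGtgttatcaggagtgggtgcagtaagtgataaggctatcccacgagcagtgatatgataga
S1 peak near Ankrd55, chr13:112949784-112949910, plus strand: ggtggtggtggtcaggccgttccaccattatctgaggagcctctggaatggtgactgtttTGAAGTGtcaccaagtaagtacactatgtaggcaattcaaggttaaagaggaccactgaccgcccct
S1 peak near Ppp1r3c, chr19:36739067-36739193, minus strand: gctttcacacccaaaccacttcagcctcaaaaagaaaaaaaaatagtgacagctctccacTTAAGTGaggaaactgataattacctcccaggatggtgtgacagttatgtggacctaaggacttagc
S1 peak near Nrn1, chr13:36774499-36774627, plus strand: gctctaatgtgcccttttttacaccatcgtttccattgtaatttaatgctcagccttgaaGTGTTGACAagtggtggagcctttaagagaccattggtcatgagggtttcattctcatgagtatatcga
S4 peak near Cdkal1, chr13:29719386-29719512, plus strand: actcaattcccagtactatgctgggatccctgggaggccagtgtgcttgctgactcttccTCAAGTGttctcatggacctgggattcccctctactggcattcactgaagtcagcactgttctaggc
S4 peak near Ctnnb1, chr9:120896286-120896412, minus strand: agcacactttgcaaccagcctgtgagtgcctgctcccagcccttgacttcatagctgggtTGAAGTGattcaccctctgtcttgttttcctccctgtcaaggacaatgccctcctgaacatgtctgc
S4 peak near Tmtc1, chr6:148449133-148449259, plus strand: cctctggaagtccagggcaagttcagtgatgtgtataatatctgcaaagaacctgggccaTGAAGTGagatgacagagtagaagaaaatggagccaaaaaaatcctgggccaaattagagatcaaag

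The Ryr2 site belonged to the peak chr13:12250869-12251790, with a score of 667.4 the second highest of the S1-only list. It lay 52.1 kb upstream of the start of Ryr2, the calcium release channel of the sarcoplasmic reticulum, between genes, and its longer core was 3 bp from the peak midpoint. The nearest S4 peak was 24.5 kb away. The Ankrd55 site scored 571.7 in S1, and there the nearest S4 peak was 5.07 kb away. The Ppp1r3c site scored 487.1 and held 3 matches in its window of 100 bp on each side, with an S4 peak only 0.671 kb away. The Nrn1 site scored 470.3 and carried the spaced pair, GTGTTGACA, 14 bp from the midpoint.

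On the S4 side the 3 scores ran from 497.0 at Tmtc1 to 543.0 at Cdkal1. The Cdkal1 site lay in an intron of that gene. The Ctnnb1 site lay in an intron of Ulk4, 58.0 kb downstream of the start of Ctnnb1, which encodes beta-catenin, and its longer core was 2 bp from the midpoint. All 7 sites held at least 1 match because that was the condition for printing them.

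Across the lists, 463 of 1329 S1-only distal peaks (34.8%, 32.3 to 37.5) and 665 of 2085 S4-only distal peaks (31.9%, 29.9 to 33.9) had the longer core or the spaced pair within 100 bp of the midpoint. In windows of the same length 2 kb to either side that touched no peak, the shares were 11.2% and 11.4%. The peaks exceeded these flanks by 23.7 points in S1 (20.9 to 26.5) and by 20.5 points in S4 (18.3 to 22.7). Both forms were therefore more frequent at peaks of either list than beside them. The intervals of differences from flanks, here and below, do not use the pairing of each peak with its flanks. Shared distal peaks held the forms more often, at 41.5% of S1 and 40.6% of S4 peaks, so that the one-library peaks lay 6.67 points lower in S1 (3.35 to 9.94) and 8.70 points lower in S4 (5.80 to 11.6). The difference between the S1-only and S4-only lists was 2.94 points with an interval from -0.289 to 6.20, which includes 0.

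The spaced pair alone was found at 86 S1-only distal peaks (6.47%) and 127 S4-only distal peaks (6.09%), against 0.923% and 0.916% of the flanks. This was 7.01 and 6.65 times the flank share, where the longer core reached 2.90 and 2.56 times. At shared distal peaks the spaced pair stood at 10.3% in each library, 3.81 points above the S1-only list (1.92 to 5.62) and 4.19 points above the S4-only list (2.54 to 5.85). A hybrid of this kind was found in the top regions of these data, and the part of that in the differences was not tested. Both forms were centred on the midpoint. In S1-only distal peaks the longer core occurred 111 times per 1000 peaks in the 50 bp after the midpoint and 41.4 times in the 50 bp that began 500 bp before it. In S4-only distal peaks the 50 bp just before the midpoint held 88.2 matches per 1000 peaks, against 33.1 in the outermost bin on that side.

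**Figure D1:**
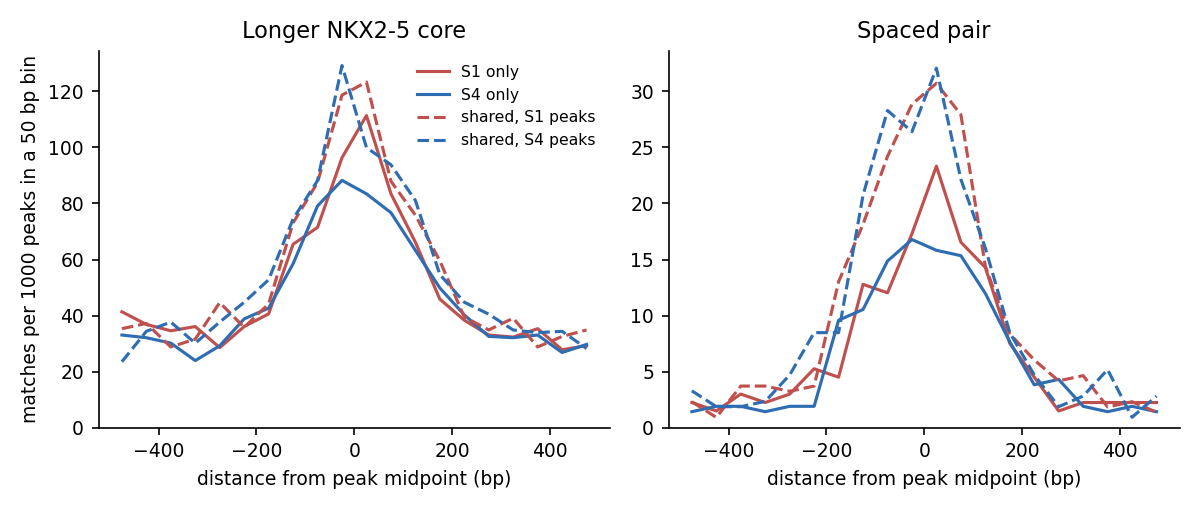
Matches per 1000 peaks (vertical axis) in 50 bp bins by distance from the peak midpoint (horizontal axis, bp), for the longer NKX2-5 core on the left and the spaced pair on the right. Solid lines are S1-only and S4-only distal peaks and dashed lines are shared distal peaks of each library. All lines rise towards the midpoint, and in the 2 bins beside it the shared peaks stand above the one-library peaks of the same library.

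The spaced pair peaks with the highest scores, again outside exons, are printed next, chosen after their values were seen. The Nrn1 site above is a further one of the S1-only list. The Kcnj6 peak scored 439.4 and lay in an intron of Kcnj6, which encodes an inwardly rectifying potassium channel. The Dkk3 peak scored 366.4 and lay in an intron of Dkk3, a gene of the Dickkopf family, 9.88 kb downstream of its start. The peaks in introns of Tmem117, Bpifb1 and Parp4 scored 378.2, 464.5 and 432.0.

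S1 peak near Kcnj6, chr16:95021210-95021338, plus strand: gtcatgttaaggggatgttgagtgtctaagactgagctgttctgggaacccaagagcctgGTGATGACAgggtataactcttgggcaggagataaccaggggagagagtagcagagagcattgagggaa
S1 peak near Tmem117, chr15:94724684-94724812, minus strand: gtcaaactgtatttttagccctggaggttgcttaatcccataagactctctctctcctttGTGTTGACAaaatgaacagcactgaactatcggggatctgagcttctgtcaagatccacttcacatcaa
S4 peak near Bpifb1, chr2:154032669-154032797, minus strand: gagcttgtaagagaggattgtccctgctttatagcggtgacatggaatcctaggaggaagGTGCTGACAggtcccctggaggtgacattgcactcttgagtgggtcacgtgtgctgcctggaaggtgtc
S4 peak near Parp4, chr14:57200081-57200209, minus strand: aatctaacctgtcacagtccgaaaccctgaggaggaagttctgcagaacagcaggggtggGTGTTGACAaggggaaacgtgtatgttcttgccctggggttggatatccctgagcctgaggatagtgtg
S4 peak near Dkk3, chr7:119292620-119292748, minus strand: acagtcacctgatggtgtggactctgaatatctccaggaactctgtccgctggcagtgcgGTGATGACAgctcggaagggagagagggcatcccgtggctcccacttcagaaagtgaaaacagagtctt

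Other motifs were searched in the same windows as exact matches on both strands. The short cores AAGTG and TGACA, which are contained in the longer core and in the spaced pair, were present at 61.9% and 57.8% of S1-only and at 58.3% and 58.3% of S4-only distal peaks, against 36.8% to 39.0% of flanks. GATAAG, the core bound by GATA factors, was found at 13.6% of S1-only and 13.9% of S4-only distal peaks, 7.96 points (5.98 to 10.1) and 7.37 points (5.74 to 9.08) above the flanks. GGAATG, bound by TEAD factors, exceeded the flanks by 4.34 points in S1 (2.10 to 6.69) and 5.89 points in S4 (4.04 to 7.80). For both, the interval of the difference from shared distal peaks included 0 in each library. GGTGTG, the core of T-box factors, was at 15.1% and 14.4%, 0.619 and 0.766 points above the flanks, and TGANTCA, bound by AP-1, was at 5.79% and 5.90%, and the intervals of these differences included 0. The E-box CANCTG exceeded the flanks by 3.30 points in S1 (0.0257 to 6.59) and by 8.30 points in S4 (5.67 to 10.9). The windows were richer in G and C than the flanks, with a median of 49.3% in S1 and 48.3% in S4 against 45.3% in both sets of flanks, and the part of this in the motif shares was not tested.

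Scores were part of how the lists came about and are given as a description. S1-only distal peaks had a median score of 172.2 (quartiles 153.6 and 208.1) and S4-only distal peaks 181.9 (quartiles 156.0 and 233.4). Under a score of 200 lay 957 S1-only peaks (72.0%) and 1282 S4-only peaks (61.5%), against 26.4% and 19.0% of shared distal peaks. No S1-only distal peak and 2 S4-only distal peaks scored 1000 or more, against 129 and 184 shared distal peaks. Median widths were 555 bp in S1 and 699 bp in S4, against 682 and 846 bp for shared distal peaks. Scores depend on the depth of the library and cannot be compared in size between S1 and S4.

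**Figure D2:**
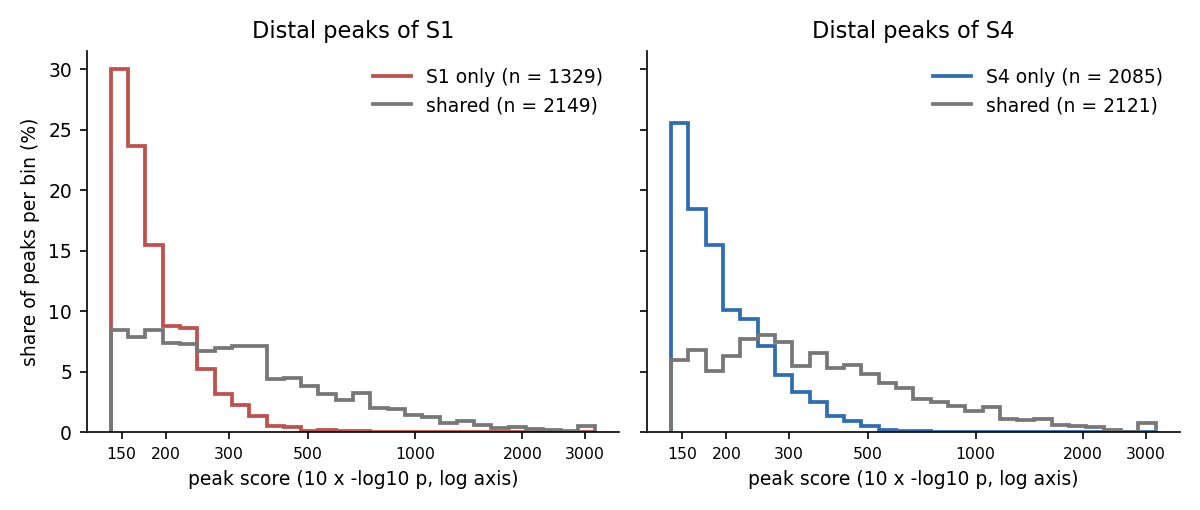
Share of distal peaks (vertical axis, percent per bin) by score on a log axis, for S1 on the left and S4 on the right. Coloured lines are peaks called in that library only and grey lines are distal peaks shared with the other library. One-library peaks crowd at the lower limit of 140, with 72.0% in S1 and 61.5% in S4 under 200.

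The motif share was then read in bands of the score. Among S1-only distal peaks the longer core or the spaced pair was at 32.9% of those scoring under 200 (29.9 to 36.0), 38.6% of those from 200 to 300 (33.1 to 44.5) and 44.2% of those of 300 or more (32.8 to 55.9, 77 peaks). The S4-only shares were 31.5%, 32.3% and 33.2% (26.8 to 40.1, 205 peaks) in the same bands. The intervals of neighbouring bands overlap in both lists. Shared peaks of the same bands had higher values in all but 1. Those under 200 held a form at 40.5% in S1 (36.4 to 44.7) and 37.4% in S4 (32.6 to 42.3), and those of 300 or more at 41.4% in S1 and 42.4% in S4. The exception was the S1 band of 300 or more, and only in the S1 band under 200 did the intervals of shared and one-library peaks not overlap.

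The 5 highest-scoring S1-only distal peaks lay outside exons, between 21.5 and 334.4 kb from the nearest protein-coding start. The strongest, chr12:16261812-16262540, scored 745.6 and lay between genes, 334.4 kb from Lpin1, which encodes a phosphatidate phosphatase. The Ryr2 peak followed. The third, chr11:105175127-105175850, scored 593.6 in an intron of Mrc2, which encodes a collagen-binding endocytic receptor, 21.5 kb from its start. The Ankrd55 peak came next, and then chr14:60398881-60399648, with a score of 536.1, in an intron of Atp8a2. The nearest S4 peak lay between 5.07 and 470.3 kb from them.

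The 5 strongest S4-only distal peaks lay closer to genes, all within 12.99 kb of a protein-coding start. The first, chr14:55602662-55607847, scored 1797.1, was 5186 bp wide and had its midpoint in an exon of Myh7, the beta-myosin heavy chain of embryonic ventricle. Its midpoint was 1001 bp from the nearest transcript start of any kind, just past the limit, and the edge of a shared region was 0.109 kb away. The second, chr14:55571793-55573756, scored 1083.4 in an exon of Myh6, the alpha-myosin heavy chain, and an S1-only peak of score 146.1 lay 0.196 kb away. The next were near Atp5a1, a subunit of mitochondrial ATP synthase, with 725.3, near Zfp36l1, an RNA-binding protein, with 677.3, and in an intron of Nr1d1, a nuclear receptor of the circadian clock, with 672.1. Apart from the Atp5a1 peak, these lay within 15.2 kb of a shared region.

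In the S4-only list the share near a gene start was higher among peaks of 300 or more than among those under 200. Of 205 peaks of 300 or more, 56 lay within 10 kb of a protein-coding gene start (27.3%, 21.3 to 34.0), against 20.7% of those from 200 to 300 (17.6 to 24.2) and 17.6% of those under 200 (15.6 to 19.8), so that the interval of the middle band overlaps both others. In S1 the shares were 16.9% (9.31 to 27.1), 15.9% (11.9 to 20.6) and 19.4% (17.0 to 22.1), with intervals that all overlap. Within 10 kb of a shared region lay 15.6% of the S4-only peaks of 300 or more (10.9 to 21.3), 9.70% of the middle band (7.45 to 12.4) and 9.20% of those under 200 (7.68 to 10.9). Introns held 48.8%, 52.2% and 52.2% of the bands from the highest to the lowest, and 24.9%, 26.1% and 28.0% lay more than 100 kb from a start, with overlapping intervals.

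Both one-library lists lay in introns and between genes in nearly the same proportions. An intron held the midpoint of 692 S1-only peaks (52.1%, 49.3 to 54.8) and 1081 S4-only peaks (51.8%, 49.7 to 54.0), and 44.1% and 44.0% lay between genes. Exons held 51 peaks (3.84%) and 87 peaks (4.17%). The differences in intron share from shared distal peaks were 3.07 points in S1 (-0.350 to 6.48) and 2.29 points in S4 (-0.727 to 5.31), both with intervals that include 0. Taken over all scores, the lists differed from shared peaks in distance to a gene start. A protein-coding gene start lay within 10 kb of 18.5% of S1-only and 19.5% of S4-only distal peaks, 3.57 points (1.03 to 6.19) and 4.76 points (2.49 to 7.04) more often than for shared distal peaks. More than 100 kb from a start lay 27.1% of each list, 5.997 points (2.86 to 9.07) and 6.23 points (3.46 to 8.995) less often than shared distal peaks. The median distance to a start was 45.3 kb for S1-only, 41.3 kb for S4-only, and 55.3 and 55.9 kb for shared distal peaks of S1 and S4. Shared peaks score higher. Under 200, a start lay within 10 kb of 19.4% of S1-only and 17.6% of S4-only peaks, against 16.4% and 16.1% of shared peaks, with overlapping intervals. Over 100 kb away lay 25.8% against 32.6% in S1, without overlap, and 28.0% against 30.9% in S4, with overlap. At 300 or more, the S4 shares within 10 kb were 27.3% and 15.2%, without overlap.

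The motif share followed the same axis. The longer core or the spaced pair was at 24.4% of S1-only peaks (19.2 to 30.3) and 25.4% of S4-only peaks (21.2 to 29.9) with a gene start within 10 kb. More than 100 kb from a start the shares were 41.7% (36.5 to 46.9) and 35.5% (31.6 to 39.6). Shared distal peaks showed the same order, from 31.5% to 44.4% in S1 and from 33.7% to 42.7% in S4.

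Few one-library distal peaks lay beside a shared region. Within 10 kb of one, edge to edge, were 123 S1-only peaks (9.26%, 7.75 to 10.9) and 208 S4-only peaks (9.98%, 8.72 to 11.3). Shared distal peaks had the next shared region within 10 kb in 12.7% of cases in S1 and 12.3% in S4, so that one-library peaks were beside a shared region less often by 3.45 points in S1 (1.30 to 5.51) and 2.28 points in S4 (0.381 to 4.18). All shares rise with the limit, and the difference in points rose with them. Within 100 kb lay 33.3% of S1-only peaks and 36.5% of S4-only peaks, against 41.6% and 41.2% of shared distal peaks. The one-library shares were lower by 8.27 points (4.96 to 11.52) and 4.66 points (1.72 to 7.59). Within 1 kb the one-library share minus the shared distal share was -0.127 points in S1 (-1.09 to 0.944) and 0.426 points in S4 (-0.556 to 1.42). The median distance to a shared region was 202.9 kb for S1-only and 181.9 kb for S4-only distal peaks, against 148.1 and 153.7 kb from shared distal peaks to the next region. One-library promoter peaks lay within 10 kb of a shared region in 7.38% of cases in S1 and 8.61% in S4. Distal minus promoter shares were 1.88 points (-1.15 to 4.49) and 1.36 points (-1.10 to 3.58), with intervals that include 0. Within 100 kb they were -0.0683 points in S1 (-5.03 to 4.73) and 6.04 points in S4 (2.18 to 9.77).

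**Figure D3:**
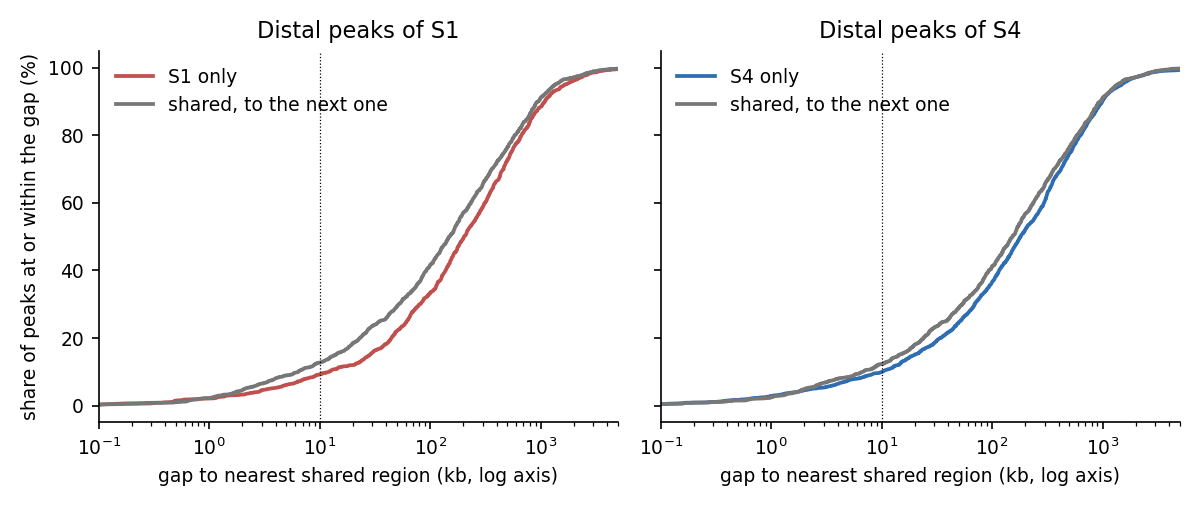
Cumulative share of distal peaks (vertical axis, percent) by the gap to the nearest shared region (horizontal axis, kb, log scale), for S1 on the left and S4 on the right. Coloured lines are one-library peaks, grey lines are shared distal peaks measured to the next shared region, and the dotted line marks 10 kb. The coloured line runs below the grey line between 10 and 100 kb in both libraries, with medians of 202.9 against 148.1 kb in S1 and 181.9 against 153.7 kb in S4.

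One-library peaks within 10 kb of a shared region had lower scores than their neighbours, as one-library peaks had against shared peaks at any place, so nothing is read from this. In S1 the median score was 168.1 for the peak and 271.8 for the S1 score of its neighbour, against 172.7 for S1-only peaks farther away. In S4 the medians were 186.0 and 357.8, against 181.2 farther away. The longer core or the spaced pair was at 24.4% of the peaks beside a shared region in S1 (17.1 to 33.0) and 25% in S4 (19.3 to 31.5), against 35.9% (33.2 to 38.7) and 32.7% (30.5 to 34.8) of those farther away. These intervals overlap in S4 and not in S1. The S1-only peak nearest to a shared region, chrX:58027464-58027878, was 21 bp from it and scored 153.7. The S4-only peak nearest to one, chr13:46611462-46612053, lay 0.017 kb from it in an intron of Cap2, a regulator of actin filaments, and scored 187.6.

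Proximity to the opposite list was measured in the same way. Within 10 kb of an S4-only distal peak were 94 S1-only peaks (7.07%, 5.75 to 8.59), and within 10 kb of an S1-only distal peak were 96 S4-only peaks (4.60%, 3.75 to 5.59). The targets differ in number, with 2546 shared regions, 2085 S4-only and 1329 S1-only distal peaks, so these shares cannot be set against each other or against the shares beside a shared region. Shared distal peaks had almost the same shares, 7.82% of S1 peaks within 10 kb of an S4-only peak and 4.86% of S4 peaks within 10 kb of an S1-only peak. Neither a shared region nor a peak of the opposite list lay within 10 kb of 84.9% of S1-only and 86.5% of S4-only distal peaks, and within 100 kb this held for 50.2% and 52.3%.

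Some pairs of one-library peaks nearly touched. A pair 71 bp apart in an intron of Zfp704 scored 153.5 in S1 and 199.7 in S4. Another, 0.076 kb apart in an intron of Nisch, scored 196.6 in S1 and 164.2 in S4, and its S1 peak was nearest to Tnnc1, the slow and cardiac troponin C. In all, 33 S1-only and 37 S4-only distal peaks had some peak of the other list within 500 bp. On the other side of the limit, the smallest overlap that still counted as shared was 6 bp. On the limit of distance, the one-library distal peaks nearest to a transcript start were at 1006 bp in S1 and 1001 bp in S4, and the one-library promoter peaks just inside 1 kb were at 996 and 987 bp.

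Each peak was then given to the protein-coding gene with the nearest start. A gene name given with a peak means only this, and 27.1% of each list lay more than 100 kb from the start. S1-only distal peaks fell to 1156 genes and S4-only distal peaks to 1692 genes, which is 5.17% and 7.57% of 22350 protein-coding genes, and a shared region fell to 8.79%. The gene of 431 S1-only peaks (32.4%, 29.9 to 35.0) and 771 S4-only peaks (37.0%, 34.9 to 39.1) was also nearest to a shared region. Shared distal peaks had another shared region at their gene in 42.2% of cases in S1 and 41.9% in S4, higher by 9.78 points (6.48 to 13.01) and 4.89 points (1.93 to 7.83). Most of this sharing was at a distance: 316 of the 431 S1-only peaks and 572 of the 771 S4-only peaks lay more than 10 kb from any shared region. Both lists had 329 genes in common, which is 28.5% of the S1-only genes, 19.4% of the S4-only genes and 1.47% of all protein-coding genes. A one-library distal peak of either list was nearest to 11.3% of genes, and 7.95% of genes had such a peak and no shared region. More than 1 peak of the list was held by 142 of 1156 genes in S1 (12.3%) and 295 of 1692 genes in S4 (17.4%).

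Genes with long intervals around them gather more peaks. The median stretch of genome nearer to a gene's start than to any other was 0.0477 Mb over all protein-coding genes, 0.152 Mb for genes nearest to a one-library distal peak and 0.311 Mb for the 195 genes with 3 or more. Numbers per gene are therefore given with the density per Mb, which was 1.29 over all genes.

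Tbx5 had the most one-library distal peaks of any gene and no shared region at all. TBX5 is the T-box factor mutated in Holt-Oram syndrome and a partner of NKX2-5 at cardiac genes. The 5 S1-only peaks scored 216.1, 169.7, 179.6, 464.4 and 182.5 at 2.19, 10.4, 36.7, 48.5 and 130.2 kb downstream of the start. The 3 S4-only peaks scored 158.4 at 28.8 kb upstream, and 146.7 and 177.1 at 22.2 and 40.5 kb downstream. Peaks of the lists were interleaved along the gene, and the closest S1-only and S4-only peaks were 3.18 kb apart. The density was 35.9 per Mb. The strongest, chr5:120332781-120333599, had its midpoint in an exon.

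Nkx2-5 itself also had one-library peaks of both lists and no shared region nearest to it. The S1-only peaks scored 283.6 at 7.85 kb downstream and 199.6 at 23.5 kb upstream of the start. The S4-only peaks scored 161.5, 140.8 and 149.3 at 1.75, 9.04 and 27.3 kb upstream. The peaks chr17:27001422-27002543 of S1 and chr17:27005510-27006164 of S4 were 2.97 kb apart. The downstream S1 peak carried the spaced pair 7 bp from its midpoint. Sites at Tbx5, Nkx2-5 and Rbm20 with a form in the window are printed because the peaks of these genes are described one by one, and they were chosen after their values were seen. The Nkx2-5 site is that of the downstream S1 peak, the Tbx5 site is that of the S4 peak of 146.7, and the Rbm20 site is that of an S4 peak of 295.7 described next.

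S1 peak near Nkx2-5, chr17:26970601-26970729, minus strand: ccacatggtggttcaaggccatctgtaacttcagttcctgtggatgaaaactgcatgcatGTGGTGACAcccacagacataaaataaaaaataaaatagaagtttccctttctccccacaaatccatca
S4 peak near Tbx5, chr5:120306789-120306915, plus strand: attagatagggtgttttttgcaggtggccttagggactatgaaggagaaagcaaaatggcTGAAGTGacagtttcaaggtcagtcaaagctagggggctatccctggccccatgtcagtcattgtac
S4 peak near Rbm20, chr19:53745235-53745361, plus strand: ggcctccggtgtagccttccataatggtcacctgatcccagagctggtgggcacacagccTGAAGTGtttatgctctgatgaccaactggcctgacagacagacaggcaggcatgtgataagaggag

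Rbm20, the splicing factor of titin, had 4 S1-only peaks, 2 S4-only peaks and 1 shared region, at 41.1 peaks per Mb. The S4-only peaks, 295.7 and 221.7, lay 6.47 and 1.48 kb upstream of the start. The S1-only peaks lay on both sides of these, at 23.5 and 16.2 kb upstream with scores of 150.5 and 140.1, and in an intron 33.8 and 35.3 kb downstream with 215.5 and 221.3. The shared region, whose higher score was 751.6, lay 39.2 kb downstream. The other genes with 4 S1-only peaks were Dbx1, a homeobox gene of the neural tube, and Sfi1, and 3 fell to Ube2e1. Their densities were 15.6, 1.29 and 9.63 per Mb. That of Sfi1 rests on an interval of 3.10 Mb, although its 4 peaks lie between chr11:3002607 and chr11:3048940. It is therefore not read against the density over all genes. All 4 Dbx1 peaks, with scores from 162.2 to 261.0, lay in introns of the neighbouring gene Nav2, and none of these 3 genes had an S4-only peak.

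The Sfi1 peaks differ from the rest of the list in form. They included the widest S1-only peaks, chr11:3038995-3048940 of 9946 bp and chr11:3030502-3038922 of 8421 bp, which nearly adjoin, with scores of only 148.6 and 230.8. Of 20 evenly spaced stretches of 32 bases in each, 4 and 3 occurred more than once in the assembly. The next widest, chr9:3025162-3027960, had 15 of 20 in more than 1 copy. The widest S4-only peaks were that at Myh7, 1 of 2542 bp in an intron of Igf2r, a receptor that clears IGF2, with a score of 537.8, and 1 of 2395 bp in an exon near Hjurp with 253.3. Over the lists such sequence was rare: at least 10 of the 20 stretches were repeated in 4 S1-only (0.301%) and 5 S4-only distal peaks (0.240%), against 0.186% and 0.330% of shared distal peaks.

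In the S4-only list, Zfp521, a zinc finger factor, and Tbc1d7, a subunit of the TSC complex, had 5 peaks each. The densities of one-library peaks were 8.47 and 16.0 per Mb. Zfp521 also had 1 S1-only peak and 2 shared regions. The Tbc1d7 peaks, from 144.4 to 249.6, were interspersed with 5 shared regions, of which the strongest scored 860.1, and the gene had no S1-only peak. Jph2, which joins the plasma membrane to the sarcoplasmic reticulum, had 4 S4-only peaks of 444.5, 197.7, 215.6 and 185.8 at 5.49, 18.5, 57.6 and 65.0 kb downstream of its start. Its single S1-only peak scored 140.01, at the limit of the list, and lay 0.689 kb from the strongest S4-only peak. A pair of shared regions lay at the gene, and the density of one-library peaks was 45.1 per Mb. Trim32 and Sdk1 had 4 S4-only peaks each, at densities of 6.25 and 8.57 per Mb. The Trim32 peaks lay in introns of Astn2, which surrounds it. Sdk1, a cell adhesion molecule, had 2 S1-only peaks as well.

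At Rbm20 and Sdk1 the closest S1-only and S4-only peaks were 9.02 and 3.33 kb apart, so that neither pair would count as shared with a gap of up to 500 bp allowed.

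**Figure D4:**
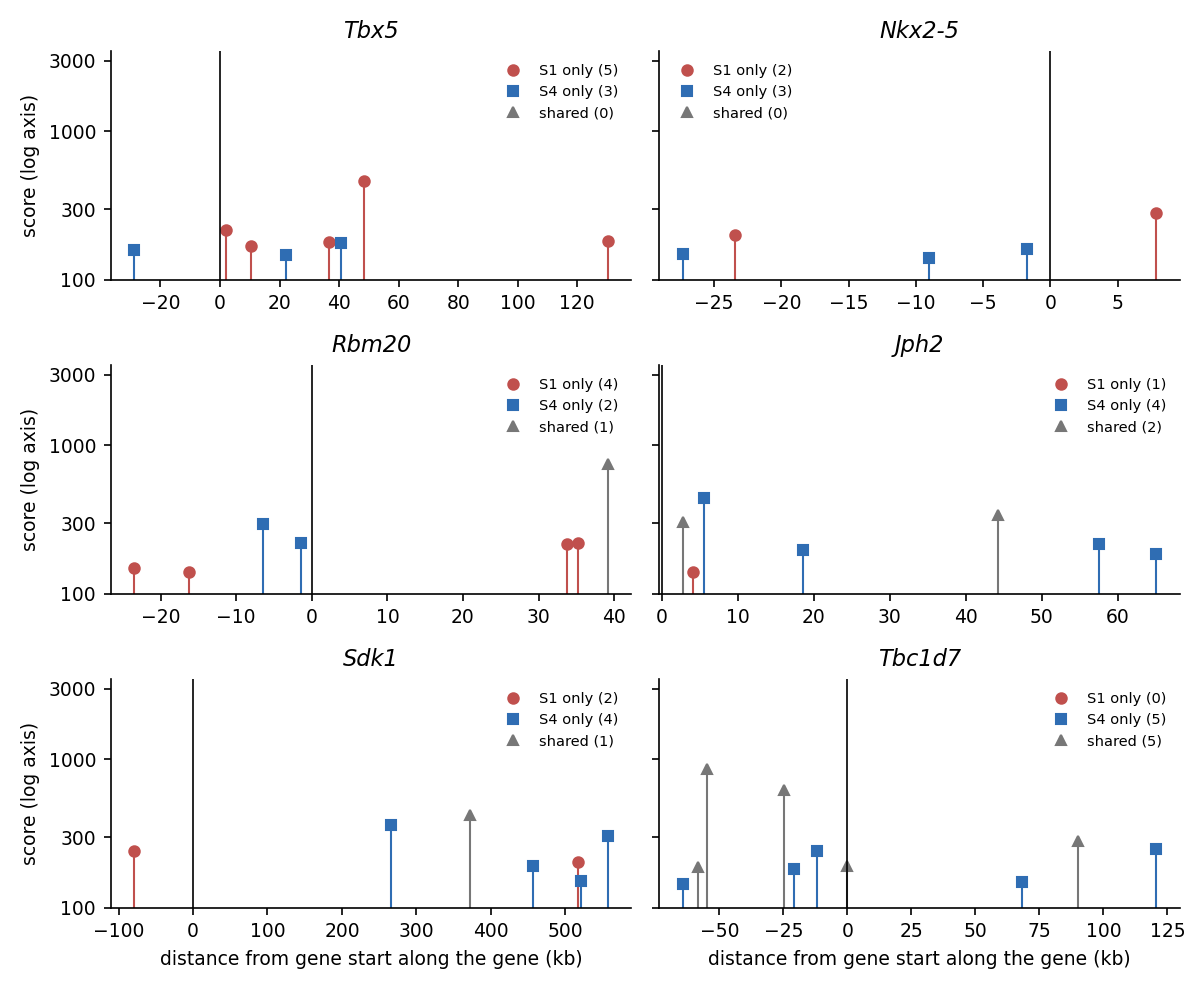
Score on a log axis (vertical) against distance from the gene start along the direction of the gene (horizontal, kb) for the peaks nearest to 6 genes, with circles for S1-only and squares for S4-only distal peaks and triangles for shared regions (the higher score of the region). Tbx5 and Nkx2-5 have no triangle, and the Rbm20 peaks of both lists stand below its shared region of 751.6.

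Genes of the heart lists had one-library distal peaks more often than the background. Of 37 cardiac transcription factor genes, 11 were nearest to an S1-only distal peak (29.7%) and 23 to an S4-only distal peak (62.2%), against 5.17% and 7.57% of all protein-coding genes. A shared region was nearest to 18 of them (48.6%, background 8.79%), and 9 had one-library peaks of both lists (24.3%, background 1.47%). Counting the strongest peak of each gene, the highest S1-only scores were at Tbx5, at Rxra, a retinoid receptor, with 361.0, and at Nkx2-5. The highest S4-only scores were at Gata5 with 376.4, at Mef2d with 366.9 and at Foxp1 with 355.8. Foxp1, a forkhead repressor, had 2 peaks of each list and no shared region. For 9 of the 37 genes, among them Tbx5, Nkx2-5, Foxp1, Tbx1, Mef2c, Isl1, Irx4 and Hopx, a one-library peak was present and a shared region was not, 24.3% against 7.95% of all genes. For this and the gene lists below, the length of the intervals around the genes was not compared with that of all genes. Its part in the shares was not tested.

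At the sarcomere and Z-disc genes, which build the contractile apparatus, shared regions were the most frequent class. Of 37 genes, 25 had a shared region (67.6%), 12 an S1-only peak (32.4%) and 11 an S4-only peak (29.7%), and 4 had both one-library classes (10.8%). Over all protein-coding genes these shares were 8.79%, 5.17%, 7.57% and 1.47%. The S4-only peaks at Myh7, Myh6 and Tnnt2, the cardiac troponin T, reached 1797.1, 1083.4 and 537.3 and each lay within 2.17 kb of a shared region. Counting 1 peak per gene, the highest S1-only scores of the list were 273.8 at Pdlim5, 252.6 at Tnnt3, the fast skeletal troponin T, and 233.4 at Ankrd1, which encodes a stretch-responsive ankyrin repeat protein. These peaks lay 34.5, 4.46 and 47.9 kb from the starts, that of Tnnt3 within Lsp1. Myh7 had 3 S4-only peaks, all within 1.29 kb of a shared region, and no S1-only peak. Tnnt2 likewise had 3 S4-only peaks and no S1-only peak.

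Of 29 conduction and calcium handling genes, 5 had an S1-only peak (17.2%) and 13 an S4-only peak (44.8%), and all 5 were among the 13. Over all protein-coding genes the shares were 5.17% and 7.57%. A shared region was at 13 genes (44.8%, against 8.79% of all genes), and 7 genes had one-library peaks without one (24.1%, against 7.95%). Ryr2, with the S1-only peak of 667.4, had a second S1-only peak of 230.4 and S4-only peaks of 176.5 and 158.5. Cacna1g, a T-type calcium channel, had an S1-only peak of 335.1 and an S4-only peak of 258.9 that were 9.28 kb apart in introns, with no shared region. The gene with the next S1-only score was Kcnd3, a potassium channel, with 170.7. The genes with the highest S4-only scores were Pln with 342.1, which encodes phospholamban, the inhibitor of the sarcoplasmic calcium pump, then Cacnb2, a calcium channel subunit, with 297.0 and a second peak of 284.9, and Slc8a1, the sodium and calcium exchanger, with 260.7.

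Of 33 heart signalling genes, 8 had an S1-only peak (24.2%), 11 an S4-only peak (33.3%) and 14 a shared region (42.4%). Over all protein-coding genes these shares were 5.17%, 7.57% and 8.79%. Bmp7, a bone morphogenetic protein, had 3 S1-only peaks up to 288.6 and 1 S4-only peak of 142.1, which lay 3.07 kb apart at the nearest. The genes with the next S1-only scores were Jag1 with 242.1 and Notch2 with 217.2, a ligand and a receptor of the Notch pathway. These peaks lay 193.3 and 32.9 kb from the starts. On the S4 side the leading genes were Nppb, a natriuretic peptide, with 281.4, Wnt5a with 271.7 and Tgfb2 with 231.6. Their peaks lay 22.0, 381.0 and 118.7 kb from the starts, that of Wnt5a in an intron of Erc2. Of 11 TALE homeodomain genes, 4 had an S1-only peak (36.4%), 2 an S4-only peak (18.2%) and 3 a shared region (27.3%), against the same shares of all genes. Their peaks included those nearest to Tgif1 with 232.8, Pbx3 with 227.9 and Meis1 with 225.6 in S1, and Meis2 with 152.3 in S4. These peaks lay 264.5, 13.6, 225.5 and 189.9 kb from the starts, that of Tgif1 in an intron of Dlgap1.

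Lists of other cell types are small, and their shares are read against the same 5.17% for S1-only and 7.57% for S4-only peaks. Of 20 endocardium, epicardium and fibroblast genes, 1 had an S1-only peak (5%) and 3 an S4-only peak (15%). Kdr, the VEGF receptor of endothelium, had both, 297.1 at 38.8 kb and 300.3 at 130.8 kb from its start. Emcn and Npr3 had S4-only peaks of 336.6 at 47.8 kb and 153.4 at 52.7 kb. Of 29 neural genes, 2 had an S1-only peak, Sox2 and Sox3, and 2 an S4-only peak, Dlx6 and Dlx2, each 6.90%, with no gene in common. These peaks lay 258.6, 118.9, 72.1 and 52.1 kb from the starts. Of 19 liver and blood genes, 2 had an S1-only peak and 2 an S4-only peak (10.5% each, above both background shares). Runx1, a blood and endothelial factor, had both, Foxa2 an S1-only peak of 144.9 and Apoa1 an S4-only peak of 146.8. The Foxa2 peak lay 263.2 kb from its start, and the Apoa1 peak 98.2 kb, in an intron of Sik3. With so few genes, 1 gene more or less moves these shares by several points.

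**Figure D5:**
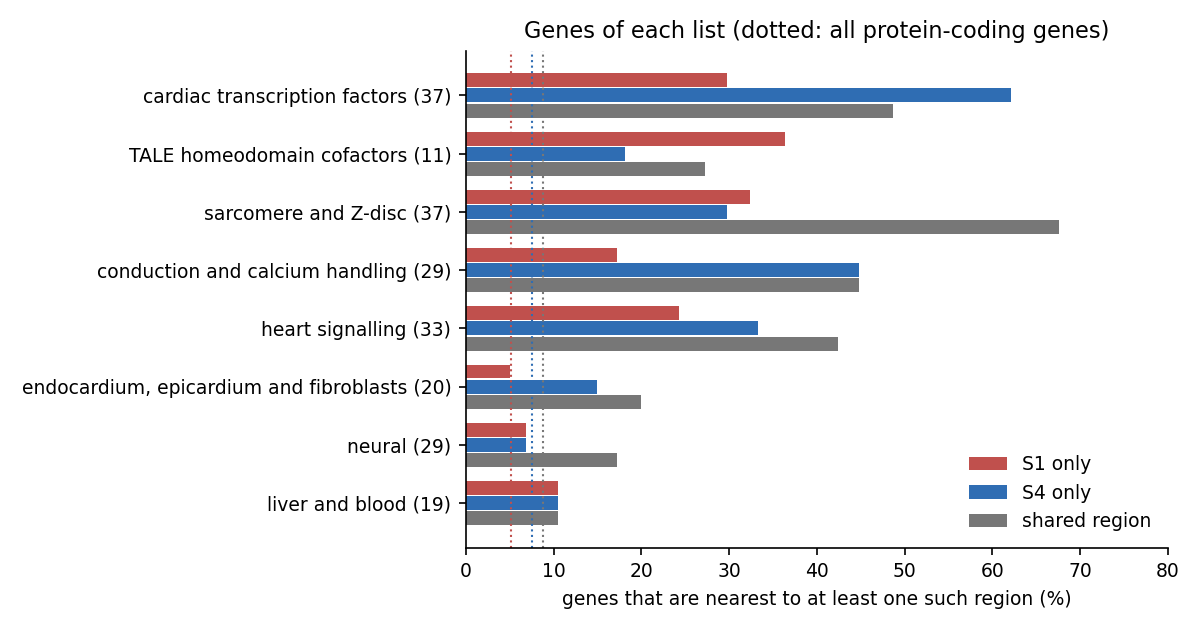
Share of the genes of each list (horizontal axis, percent, number of genes in brackets) that are nearest to at least 1 S1-only distal peak, S4-only distal peak or shared region of any position. Dotted lines give the same shares over all protein-coding genes, 5.17%, 7.57% and 8.79%. Bars of the cardiac transcription factor, TALE, sarcomere, conduction, signalling, and liver and blood lists pass their dotted lines in all 3 colours. The endocardium list passes for S4-only peaks and shared regions, and the neural list for S1-only peaks and shared regions.

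The peaks were spread over all chromosomes that held peaks. S1-only distal peaks made up between 23.3% and 37.4% of the S1 list on single chromosomes and S4-only distal peaks between 33.1% and 45.0% of the S4 list. Chromosomes 13 and 18 stood highest in both lists, with 37.1% and 37.4% in S1 and 42.0% and 45.0% in S4. Chromosome X held few peaks of any class, 33 in S1 and 43 in S4. Of these, 9 were S1-only (27.3%) and 18 S4-only distal peaks (41.9%), against 30.1% and 38.3% over the whole lists. The density of one-library distal peaks was 0.162 per Mb of sequence there and between 1.15 and 1.78 per Mb on the numbered chromosomes.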

How the data were processed

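Chromatin of fixed, sonicated E11.5 hearts was immunoprecipitated for NKX2-5. Per the study's methods, alignment to mm9 used BOWTIE and peak calling MACS 1.4. Settings, and whether the Input served as control, are not given in the sources used here. What the authors deposited is a separate peak list for S1 and for S4. The deposited score, read from its values as -10 times log10 of the p-value, is not scaled between libraries. The other deposited columns used were start and end in base pairs.

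Groups came from the labels. Coordinates are counted from 1 on NCBIM37, with genes from GENCODE M1. The nearest gene is the protein-coding gene with the nearest start, shared regions include promoters, and gaps run from edge to edge. Flanks are windows 2 kb to either side that overlap no peak. Repeated sequence was measured with 20 stretches of 32 bases per peak. Named peaks and genes are the 5 highest-scoring and 3 widest of each list, the closest pairs and those nearest to a shared region, the 5 genes with most peaks of each list, the 4 with most of both lists and a shared region, and, per gene list, up to 3 genes with the highest scores. The further spaced pair sites, the printed sites at Nkx2-5, Tbx5 and Rbm20, and the bands of the score were chosen after their values were seen. Some items that this rule names are not reported here. The members, gene lists and motifs were chosen with earlier results of these data known. Of the 8 gene lists, 215 of 217 genes were found in the annotation. Functions were tested on simulated data. Calculations used Python 3.11.15, numpy 2.4.6, scipy 1.17.1, pysam 0.24.0 and matplotlib 3.10.9.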

Additional observations from a re-analysis of the deposited data

How the results depend on the processing

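There was 1 condition with 2 libraries, depth is unknown and scores end at 140, so calling a peak in 1 list does not show that the other library lacked signal there. Intervals cover counting error only, and peaks of a list are not independent. The ChIP libraries could not be paired by condition because both belong to 1 group. Each flank belongs to a peak, but the intervals of differences from flanks treat peaks and flanks as independent.

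Under 14 alternative settings, 61 of 108 values stayed within the 95% interval of the reported share, or within 1.5 times the reported count. Leaving out sequence repeated in the assembly, an alternative chosen after seeing the data that removed 9 peaks, numbered chromosomes only and starts of protein-coding genes only moved no value beyond that. Leaving out each library in turn was planned but gives no value, because a peak is found in 1 library only by comparison with the other.

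Raising the minimum score of both lists to 200 before overlap was assessed gave 562 S1-only and 1146 S4-only distal peaks. These are not a subset of the reported peaks, of which 957 in S1 and 1282 in S4 scored under 200. By this construction they include peaks whose only overlapping peaks in the other list scored under 200. The share within 10 kb of a shared region was then 6.76% in S1, that within 10 kb of the opposite list 3.56% in S1 and 1.66% in S4, and that with a gene in common with shared regions 27.2% and 30.2%. Genes in common between the lists were 19.5% of S1-only and 10.2% of S4-only genes, introns held 49.7% of S4-only peaks, and a motif form was at 40.7% and 34.9%. With peaks within 500 bp counted as shared, 7.72% of S1-only peaks lay within 10 kb of a shared region, and 5.71% in S1 and 3.47% in S4 within 10 kb of the opposite list. Requiring an overlap of 50% of both peaks puts partly overlapping peaks into both lists, and by this construction 19.4% in S1 and 12.8% in S4 lay within 10 kb of the opposite list and 36.7% and 26.2% of genes were in common. The S4 share with a gene in common with shared regions was then 34.2%.

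With a limit of 5 kb from transcript starts, 7.66% in S1 and 7.57% in S4 lay within 10 kb of a shared region, 3.66% of S4-only peaks within 10 kb of the opposite list, 49.6% of S4-only peaks in introns, and 34.0% of them had a motif form. Limits of 2 and 50 kb in place of 10 kb gave 3.24% and 22.0% in S1 and 4.56% and 24.6% in S4 for shared regions, and 2.71% and 19.5% in S1 and 1.87% and 14.005% in S4 for the opposite list. With the nearest gene of any type, 25.2% of S1-only and 27.6% of S4-only peaks had a gene in common with shared regions, and 20.9% and 14.05% of genes were common to both lists. With the 2 nearest protein-coding genes within 1 Mb these values were 49.7% and 53.3%, and 36.4% and 25.9%. The motif share was 10.3% in S1 and 8.87% in S4 in windows of 25 bp to either side, 53.95% and 52.2% in 250 bp, and 56.2% and 59.6% in the whole peak. Such limits and windows count more by construction as they widen. For the other changed values the cause was not tested.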
